A study of Homo sapiens with 48 samples.

Results

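The proteasome genes were followed through an imatinib experiment in K562 cells, from the subunits of the particle to its regulators and assembly factors. A probe set was taken as a member when its only annotated symbol was PSMA, PSMB, PSMC, PSMD, PSME, PSMF or PSMG followed by digits. This gave 62 of 22215 probe sets, which measured 39 of 11963 genes. Of 48 genes in this naming family, 9 had no probe set of their own and were not analysed here (PSMA6, PSMA8, PSMB11, PSMC5, PSMD7, PSMD13, PSME2, PSMG3 and PSMG4). A further 5 probe sets carried a proteasome symbol together with another one and were left out, as were 3 whose symbols continue with letters (PSMC3IP and PSME3IP1), which are genes of other proteins.

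K562 cells are a long-established leukaemia line of human origin whose growth depends on the fusion kinase BCR-ABL1, and imatinib is a drug that inhibits this kinase. Imatinib cells received 1 micromolar of the drug for 24 h and were set against mock-treated cells, with 3 samples of each treatment in each of 8 sets lettered A to H, or 24 against 24 samples. Per the labels, imatinib RNA was isolated with a column kit and given a reduced amount of spike controls, while mock RNA was isolated with Trizol followed by the column kit and given the standard amount, so the drug and the isolation method cannot be told apart. The meaning of a set letter is not stated, nor whether the samples are separate cultures. The p-values therefore weigh each difference only against the spread of these samples, and part or all of that spread may be technical.

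The proteasome is the cell's main protease for proteins tagged with ubiquitin. Its core is a barrel of stacked rings: outer rings of alpha subunits (PSMA genes) gate the entrance, and inner rings of beta subunits (PSMB genes) carry the protease sites. A regulatory particle caps the barrel. Its base of ATPases (PSMC genes) and scaffold proteins (some PSMD genes) unfolds the substrate, and its lid (other PSMD genes) removes the ubiquitin chain. Further PSMD genes encode chaperones that assemble the base. Interferons induce replacement beta subunits, which turn the core into the immunoproteasome of antigen presentation, and other caps (PSME genes) open the core without ubiquitin. Because imatinib-treated and mock cells were measured in bulk, fewer cells with a transcript and less of it per cell cannot be told apart.

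Values are log2 levels of an Affymetrix array, and their overall scale differed between sets, with sample means of 5.88 to 7.61, but by at most 0.053 within a set. Levels were therefore compared within sets. Replicates spread little, with a median SD per group of 0.0615 to 0.147 log2 across 16 groups. Imatinib sample 1 of set E and imatinib sample 2 deviated from their group by medians of 0.19 and -0.18 over the proteasome genes, the widest spread of the 16 groups. Of 6 K562 markers, 4 were measured, and HBZ, HBE1, GATA1 and BCR all lay in the brighter part of the array, at or above its median level. So did 3 of 4 T cell markers, 3 of 3 B cell markers and 6974 of 11963 genes, but 0 of 4 monocyte markers. This level is therefore not particular to K562 markers. All 4 K562 markers were higher in imatinib cells, as were 41.6% of all genes. T cell markers had 2 of 4 higher and 1 lower, B cell markers 3 of 3 higher and monocyte markers 1 of 4 higher and 1 lower. Under centring and under quantile normalization 4 of 4 K562 markers stayed higher, and T cell markers kept 2 higher and 1 lower. After centring 1 B cell marker and 0 monocyte markers were higher, beside 30.5% of all genes. After quantile normalization 2 B cell markers and 0 monocyte markers were higher, beside 36.4% of all genes. The part of these markers in the proteasome results was not tested.

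Most proteasome genes had lower transcript levels in imatinib cells than in mock cells. In the combined limma fit, 44 of 62 probe sets were lower and 9 higher at an adjusted p under 0.05, together 85.5% of them, against 65.2% of all probe sets tested (25.8% lower and 39.3% higher). Counted by gene, with the brightest probe set for each gene, 27 of 39 were lower and 6 higher, against 27.1% lower and 41.6% higher over all genes. The median log2 change of the 39 genes, imatinib minus mock, was -0.20, beside 0.05 over all genes and 0.02 over the other genes at or above the median level, where 37 of the 39 proteasome genes lay. Of those 6937 other genes, 2730 were lower, 2880 higher and 1327 not called, beside 3237, 4978 and 3748 of all 11963 genes. The shares of all genes given here and further on thus understate how often bright genes were called lower. Centring each array on its median gave 28 genes lower and 4 higher, against 30.5% of all genes in each direction. Quantile normalization within sets gave 24 lower and 9 higher, against 26.1% and 36.4% of all genes. Over all probe sets the split was 5738 lower and 8740 higher as deposited, 6638 lower (29.9%) and 6194 higher (27.9%) after centring, and 5761 lower (25.9%) and 7394 higher (33.3%) after quantile normalization.

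The changes were mostly modest. A shift of at least 0.5 log2 was measured in 10 of 39 genes, or 25.6%, of which 8 were lower, and in 14.3% of all genes. By the brightest probe set of each gene, PSMD12 alone changed by 2-fold or more, and a dimmer probe set of PSME3 did so too, at -1.03. For 11 genes all 24 imatinib values lay below all 24 mock values after each set was put on its own mock mean, against 7.97% of all genes. For PSMD9 and PSME1, 2 of the 39 genes, all 24 lay above, against 4.66% of all genes. That count is near the share over all genes and is no result about the proteasome genes.

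**Figure D1:**
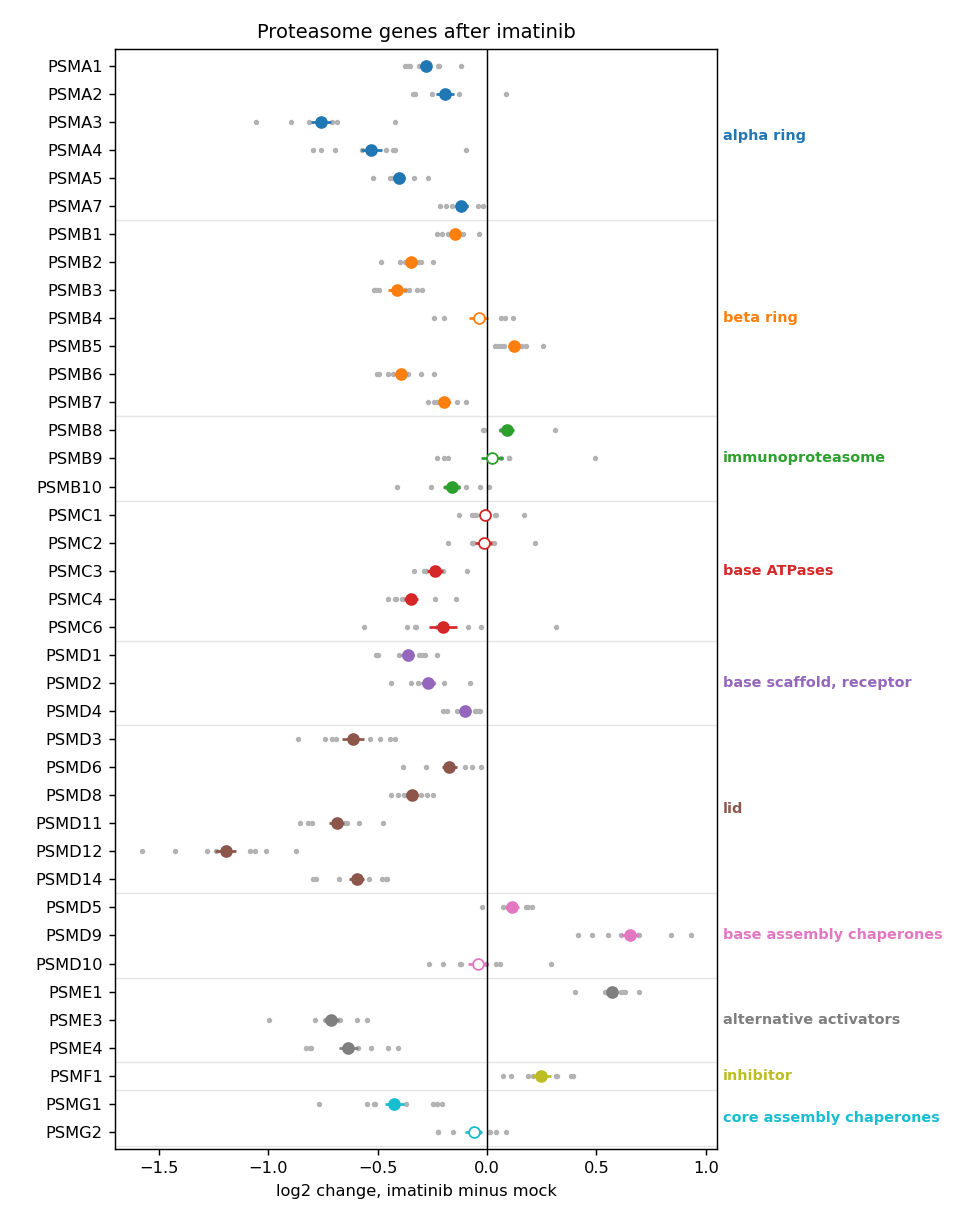
Log2 change, imatinib minus mock, on the x axis for 39 proteasome genes grouped by role, with the combined fit of 24 imatinib and 24 mock samples as a large point with its standard error (open where not called) and the 8 sets as small grey points. PSMD12 is lowest at -1.20 and PSMD9 highest at 0.65; 27 genes were called lower and 6 higher as deposited, and 24 lower and 9 higher after quantile normalization.

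All 6 measured alpha ring genes were lower in imatinib cells, beside 27.1% of all genes, with a median change of -0.34 and a range of -0.76 to -0.12. By its brightest probe set PSMA7 was no longer called after quantile normalization, which left 5, beside 26.1% of all genes. The dimmer PSMA7 probe set changed by -0.26 and stayed lower after quantile normalization, at -0.245 (adjusted p = 8.17e-07 in limma). PSMA3 fell most. Relative to the mean of the mock samples of its set, its log2 level had a lowest, median and highest value of -1.45, -0.77 and -0.29 in imatinib samples, against -0.15, -0.01 and 0.21 in mock samples, so the groups did not overlap. The widest gap was in set E, with 8.40, 7.54 and 7.85 in imatinib samples and 9.20, 8.90 and 8.86 in mock samples, and the narrowest in set F, with 9.50, 9.64 and 9.77 in imatinib samples and 10.16, 10.11 and 9.91 in mock samples. Every imatinib value of both sets lay under every mock value of the same set. PSMA3 changed by -0.76 (SE 0.05, adjusted p = 5.29e-20 in limma), to 0.59 times its mock level, and was called lower in each of the 8 sets alone.

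PSMA4 changed by -0.53 (SE 0.05) and PSMA5 by -0.40 (SE 0.03), and PSMA5 was also free of overlap over the 24 and 24 samples. PSMA1 fell by 0.28 (SE 0.02), with all 3 of its probe sets within 0.02 of each other at -0.28, -0.27 and -0.29. By their brightest probe sets the remaining alpha subunits moved least: PSMA2 changed by -0.19 (SE 0.04) and PSMA7 by -0.12 (SE 0.03), and 10 of 24 imatinib samples lay below all mock samples for each of them.

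Among the 7 beta ring genes, 5 were lower, PSMB5 was higher and PSMB4 was not called, beside 27.1% lower and 41.6% higher over all genes. Quantile normalization gave 5 lower and 2 higher, beside 26.1% lower and 36.4% higher over all genes. It put PSMB4 at 0.08 (adjusted p = 0.0365 in limma) against -0.04 as deposited. PSMB3, a subunit without a protease site, changed most of the 7. Its relative level ran from -0.79 over a median of -0.44 to -0.01 in imatinib samples, against -0.17, -0.01 and 0.31 in mock samples, and 22 of the 24 imatinib samples lay below all mock samples. The change was -0.41 (SE 0.04, adjusted p = 6.53e-12 in limma). PSMB2 and PSMB1, further subunits without a protease site, changed by -0.35 and -0.15 (SE 0.03 and 0.02), and PSMB2 showed no overlap between its 24 imatinib and 24 mock values. The dimmer probe set of PSMB2 changed by -0.10 and did overlap.

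The 3 subunits that hold the protease sites went apart. PSMB6, which carries the caspase-like site, had relative levels of -0.63, -0.39 and -0.19 (lowest, median, highest) in imatinib samples and -0.15, 0.02 and 0.20 in mock samples. No imatinib sample reached the mock range, and the change was -0.40 (SE 0.03, adjusted p = 5.40e-16 in limma). PSMB7, with the trypsin-like site, had -0.49, -0.19 and -0.05 in imatinib samples and -0.14, 0.01 and 0.14 in mock samples. Its groups overlapped, with 16 of 24 imatinib samples below all mock samples, and it changed by -0.20 (SE 0.03, adjusted p = 3.96e-08 in limma).

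PSMB5, which carries the chymotrypsin-like site, was higher in imatinib cells. Its relative levels were -0.06, 0.12 and 0.31 in imatinib samples and -0.13, 0.01 and 0.10 in mock samples, with 12 of 24 imatinib samples above all mock samples. In set F it stood at 10.50, 10.52 and 10.59 in imatinib samples and 10.24, 10.29 and 10.30 in mock samples, which do not overlap, while in set G it stood at 11.36, 11.43 and 11.41 in imatinib samples and 11.24, 11.45 and 11.36 in mock samples, which do. The combined change was 0.12 (SE 0.03, adjusted p = 0.000136 in limma). It was above 0 in all 8 sets and was called in none of them alone.

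The immunoproteasome subunits showed little change. PSMB8 was called higher, PSMB10 lower and PSMB9 not called, with a median change of 0.02; after centring or quantile normalization PSMB10 alone was called. PSMB8 and PSMB9 were the 2 proteasome genes below the array's median level, at 5.63 and 5.64 in imatinib cells and 5.54 and 5.62 in mock cells, averaged over sets, so their changes come from dim probe sets.

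PSMB8, the inducible counterpart of PSMB5, had relative levels of -0.16, 0.08 and 0.37 in imatinib samples and -0.21, 0.02 and 0.12 in mock samples. Set C alone had all imatinib values above all mock values, with 5.19, 5.07 and 5.21 in imatinib samples and 4.92, 4.88 and 4.74 in mock samples. The combined change was 0.09 (SE 0.03, adjusted p = 0.0219 in limma), and without set C it was no longer called (adjusted p = 0.16 in limma).

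PSMB9, the counterpart of PSMB6, spread more widely in imatinib samples, at -0.49, 0.01 and 0.79, than in mock samples, at -0.21, 0.00 and 0.22. Set C again stood out, with 5.52, 5.23 and 5.82 in imatinib samples and 5.19, 4.96 and 4.93 in mock samples. In set A the order was turned, with 4.97, 5.11 and 5.06 in imatinib samples and 5.24, 5.25 and 5.24 in mock samples. Over all sets the change was 0.02 (SE 0.05, adjusted p = 0.714 in limma).

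PSMB10, the counterpart of PSMB7, had relative levels of -0.43, -0.16 and 0.11 in imatinib samples and -0.23, -0.01 and 0.32 in mock samples. It changed by -0.16 (SE 0.04, adjusted p = 0.000467 in limma) and was called lower in 2 sets, D and G. In set G it stood at 7.66, 7.69 and 7.67 in imatinib samples and 7.86, 8.41 and 8.00 in mock samples, which do not overlap.

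Whether each inducible subunit changed differently from the subunit it replaces was tested over the 8 sets, with p-values adjusted over the 3 pairs. The test takes the sets as independent, which the labels do not state. The PSMB9 change exceeded the PSMB6 change in 8 of 8 sets, by 0.04 in set A to 0.999 in set C and by 0.42 ± 0.29 on average (SD, n = 8 sets; exact two-sided sign-flip permutation p = 0.00781, the smallest that 8 sets allow; adjusted p = 0.0234). Over all sets PSMB9 was not called and PSMB6 was lower. The PSMB9 probe set is dim, at the 31.3 percentile of levels against 95.2 for PSMB6, and whether it lies above background was not measured here. The part of this low level in the difference was not tested. The PSMB8 change minus the PSMB5 change averaged -0.03 ± 0.15 (SD, n = 8 sets; exact sign-flip permutation adjusted p = 0.547) and ran from -0.27 in set F to 0.25 in set C. For PSMB10 minus PSMB7 the average was 0.04 ± 0.15 (SD, n = 8 sets; exact sign-flip permutation adjusted p = 0.547), from -0.24 in set G to 0.25 in set A. The p-values of these last pairs do not show that both subunits changed alike.

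**Figure D2:**
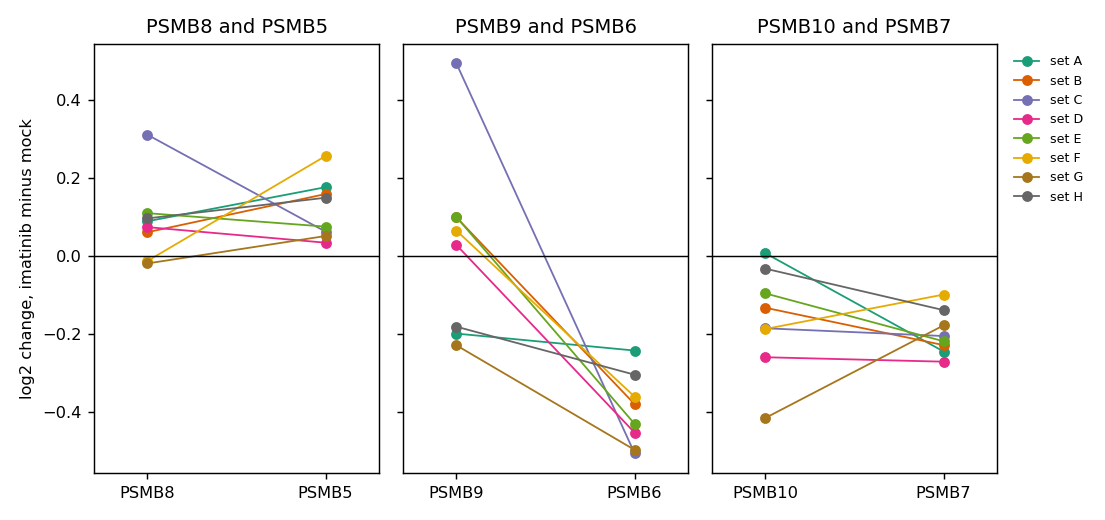
Log2 change, imatinib minus mock, in each of the sets A to H for the inducible subunits PSMB8, PSMB9 and PSMB10 and the standard subunits PSMB5, PSMB6 and PSMB7. The PSMB9 change lies above the PSMB6 change in 8 of 8 sets, while the other pairs cross.

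In the regulatory particle, 12 of 14 measured genes were lower and none was higher, beside 27.1% lower and 41.6% higher over all genes. The median change was -0.31 beside -0.28 for the 13 core genes. Quantile normalization gave 10 lower and 2 higher in the regulatory particle and in the core, beside 26.1% lower and 36.4% higher over all genes. It also turned the order of the medians, to -0.18 for the regulatory particle and -0.20 for the core. As deposited, the median change was -0.20 over the base ATPases and -0.60 over the lid.

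Of 5 measured base ATPases, PSMC4, PSMC3 and PSMC6 were lower, while PSMC1 and PSMC2 were not called at -0.01 and -0.02; after quantile normalization PSMC1 and PSMC2 were called higher at 0.12 and 0.10 (adjusted p = 6.38e-05 and 0.00309 in limma). PSMC4 had relative levels of -0.58, -0.36 and 0.00 in imatinib samples and -0.12, 0.00 and 0.19 in mock samples, with 20 of 24 imatinib samples below all mock samples. It changed by -0.35 (SE 0.03, adjusted p = 7.35e-13 in limma). PSMC3 changed by -0.24 (SE 0.04). PSMC6 had the largest SE of the 39 genes, with imatinib samples between -0.71 and 0.75 and mock samples between -0.29 and 0.24, and its change of -0.20 (SE 0.06, adjusted p = 0.00504 in limma) ran from -0.56 in set D to 0.31 in set F.

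The scaffold and receptor proteins of the base were all lower, beside 27.1% of all genes, although PSMD4 lost its call after quantile normalization, at 0.02. PSMD1, a scaffold protein, changed most, with relative levels of -0.59, -0.38 and -0.08 in imatinib samples and -0.12, -0.01 and 0.16 in mock samples. In each of the 8 sets all its imatinib values lay below all mock values, and the change was -0.36 (SE 0.03, adjusted p = 2.87e-15 in limma). PSMD2, the second scaffold, changed by -0.27 (SE 0.03), and PSMD4, a ubiquitin receptor, by -0.10 (SE 0.03).

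The lid held the proteasome gene that fell most. All 6 measured lid genes were lower, beside 27.1% of all genes, with a median change of -0.60 and a range of -1.20 to -0.17. For 5 of them all 24 imatinib values lay below all 24 mock values, beside 7.97% of all genes. PSMD6 lost its call after quantile normalization. The gene that fell most was PSMD12, a structural subunit, which was also called lower in each of the 8 sets. In set C it stood at 7.52, 7.78 and 7.55 in imatinib samples and at 8.99, 9.36 and 9.25 in mock samples. In set F, where the gap was smallest, it stood at 8.68, 8.58 and 8.73 in imatinib samples and at 9.66, 9.45 and 9.49 in mock samples.

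Over all sets the relative levels of PSMD12 were -1.71, -1.14 and -0.80 in imatinib samples and -0.21, -0.01 and 0.16 in mock samples, so the highest imatinib sample stayed well under the lowest mock sample. The change was -1.20 (SE 0.05, adjusted p = 6.59e-27 in limma), which puts imatinib cells at 0.437 times the mock level. Its dimmer probe set, on the same transcript name, changed by -0.65. The size of the PSMD12 change differed between sets (adjusted p = 0.0189, limma F test of the set-by-treatment terms), a call that was lost without set C (0.159) or set F (0.0811).

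The promoter of PSMD12 is shown because this gene moved most, and those of PSME3, PSME1 and PSMD9, described further on, because they moved strongly in opposite directions. Each line gives the 250 bases before the annotated start, 5′ to 3′ on the gene's strand, from RefSeq on GRCh38.p14. They lie at chr17:67366578-67366827 on the minus strand for PSMD12, chr17:42833147-42833396 on the plus strand for PSME3, chr14:24135944-24136193 on the plus strand for PSME1 and chr12:121888540-121888789 on the plus strand for PSMD9. Capitals mark matches to TGACNNNGC, the core of the antioxidant response element that NFE2L1 and NFE2L2 bind, to TTCNNNGAA, the form of interferon gamma activated sites, or to CCAAT, on either strand.
PSMD12: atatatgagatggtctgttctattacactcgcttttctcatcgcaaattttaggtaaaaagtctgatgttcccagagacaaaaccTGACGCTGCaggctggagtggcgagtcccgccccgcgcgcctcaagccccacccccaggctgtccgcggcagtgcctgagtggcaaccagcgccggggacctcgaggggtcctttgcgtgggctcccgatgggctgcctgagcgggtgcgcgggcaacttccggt
PSME3: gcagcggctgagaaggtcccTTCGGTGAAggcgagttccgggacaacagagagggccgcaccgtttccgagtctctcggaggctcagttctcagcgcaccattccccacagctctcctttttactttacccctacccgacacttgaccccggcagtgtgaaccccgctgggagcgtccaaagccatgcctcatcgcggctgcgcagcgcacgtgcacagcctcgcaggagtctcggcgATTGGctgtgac
PSME1: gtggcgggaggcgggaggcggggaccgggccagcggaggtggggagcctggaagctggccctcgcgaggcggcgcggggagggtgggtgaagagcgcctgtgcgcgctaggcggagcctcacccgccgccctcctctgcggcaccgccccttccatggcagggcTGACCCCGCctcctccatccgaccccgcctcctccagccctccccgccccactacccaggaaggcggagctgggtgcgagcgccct
PSMD9: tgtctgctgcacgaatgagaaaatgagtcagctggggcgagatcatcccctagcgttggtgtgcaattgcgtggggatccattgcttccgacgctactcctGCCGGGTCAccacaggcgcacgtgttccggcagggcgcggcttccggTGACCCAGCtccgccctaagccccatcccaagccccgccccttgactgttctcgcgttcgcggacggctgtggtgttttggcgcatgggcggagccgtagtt

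PSMD12 held 1 match to TGACNNNGC, 165 to 157 bases before the start. PSME1 held 1 such match, 86 to 78 bases before it, and PSMD9 held 2, at 149 to 141 and 102 to 94 bases. PSME3 held no match to it, but 1 to TTCNNNGAA at 230 to 222 bases and 1 to CCAAT, on the other strand, at 12 to 8 bases. The antioxidant core thus occurred in the gene that fell most and in both genes that rose most, and a match is a description of these letters, not a binding site or a cause.

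Across the 34 proteasome genes with an entry in the promoter table, TGACNNNGC was found in 11, or 32.4%, against 13.2% of 27305 genes searched in the same way. Of these 11 genes 6 were lower, 3 higher and 2 not called, beside 27 lower, 6 higher and 6 not called of all 39 proteasome genes. TTCNNNGAA occurred in 6 of the 34, or 17.6%, against 8.09% of all and CCAAT in 16, or 47.1%, against 37%. The motifs were picked after the promoters had been searched, so no test was made. PSMA7, PSMB1, PSMB6, PSMB7 and PSMD4 were not matched in the table.

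PSMD11, a scaffold of the lid, was the next lid gene by size. Its relative levels were -0.98, -0.68 and -0.35 in imatinib samples and -0.15, 0.01 and 0.15 in mock samples, without overlap. It changed by -0.69 (SE 0.03, adjusted p = 4.17e-23 in limma), from -0.85 in set D to -0.48 in set F. The dimmer PSMD11 probe set changed by -0.23 and did overlap. PSMD14, the enzyme that cuts the ubiquitin chain off the substrate, had -1.001, -0.57 and -0.31 in imatinib samples and -0.13, 0.00 and 0.12 in mock samples. Its groups did not overlap either, and it changed by -0.60 (SE 0.03, adjusted p = 6.41e-21 in limma).

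The structural lid subunits PSMD3 and PSMD8 changed by -0.61 (SE 0.05) and -0.35 (SE 0.03), each called lower in all 8 sets and each free of overlap. PSMD6 changed by -0.17 (SE 0.03), with 9 of 24 imatinib samples below all mock samples. Called lower in every set alone were 8 genes in all, PSMA3, PSMD3, PSMD8, PSMD11, PSMD12, PSMD14, PSME3 and PSME4, against 7.76% of all genes, and 5 of these 8 are lid genes. Called higher in every set were PSMD9 and PSME1, or 5.13% of the proteasome genes, against 4.61% of all genes. These shares are near each other, so the count is no result about the proteasome genes.

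**Figure D3:**
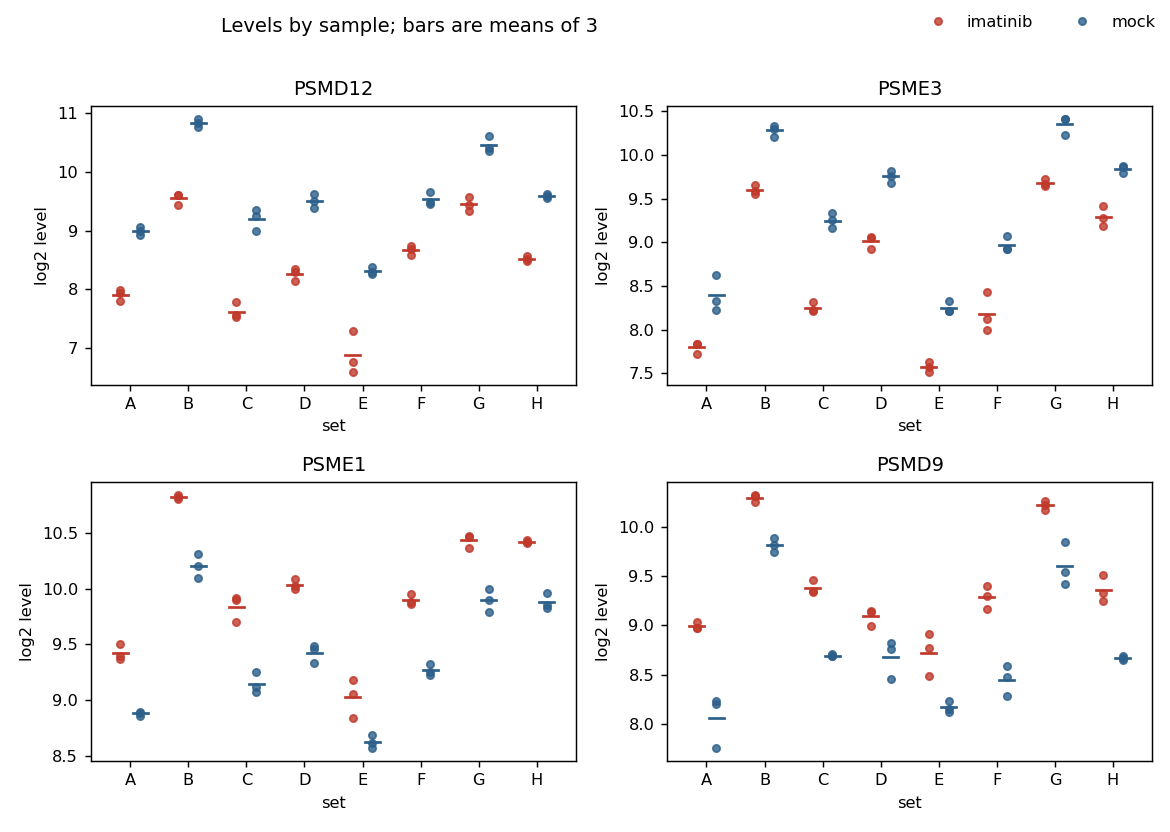
Log2 level (y axis) by set A to H (x axis) for 24 imatinib and 24 mock samples, in PSMD12, PSME3, PSME1 and PSMD9. Each point is a sample and each bar the mean of 3. The ranges given here are relative to the mock mean of the same set, which the plot does not subtract. PSMD12 values lie between -1.71 and -0.80 in imatinib samples and between -0.21 and 0.16 in mock samples. PSME1 values lie between 0.22 and 0.77 in imatinib samples and between -0.11 and 0.11 in mock samples.

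Of the 3 chaperones that assemble the base, PSMD9 and PSMD5 were higher, beside 41.6% of all genes, and PSMD10 was not called at -0.04. Centring left PSMD9 alone, beside 30.5% of all genes. Quantile normalization called all 3 higher, beside 36.4% of all genes, with PSMD10 at 0.08 (adjusted p = 0.0473 in limma). PSMD9 had relative levels of 0.32, 0.65 and 0.98 in imatinib samples and -0.31, 0.00 and 0.25 in mock samples. In set A it stood at 8.97, 8.98 and 9.04 in imatinib samples and 8.20, 8.23 and 7.75 in mock samples, and in set B at 10.25, 10.32 and 10.33 in imatinib samples and 9.89, 9.82 and 9.74 in mock samples. The imatinib values were the higher ones in every set, and the change was 0.65 (SE 0.04, adjusted p = 1.06e-18 in limma), or 1.57-fold. PSMD5 changed by 0.11 (SE 0.03, adjusted p = 0.00219 in limma), with 8 of 24 imatinib samples above all mock samples, but its dimmer probe set was lower at -0.21.

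Of the chaperones that build the core, PSMG1 was lower and PSMG2 was not called, at -0.06 (adjusted p = 0.15 in limma). PSMG1, which helps the alpha ring to form, had relative levels of -1.02, -0.41 and -0.08 in imatinib samples and -0.15, 0.00 and 0.13 in mock samples, and 21 of 24 imatinib samples lay below all mock samples. It changed by -0.42 (SE 0.04, adjusted p = 6.46e-12 in limma), from -0.77 in set E to -0.21 in set F.

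The alternative activators split by family member, and under centring and quantile normalization as well. PSME1, a subunit of the interferon-inducible cap of the core, was higher. In set C it stood at 9.91, 9.70 and 9.90 in imatinib samples and 9.25, 9.07 and 9.12 in mock samples, and in set E, where the gap was smallest, at 9.18, 9.05 and 8.84 in imatinib samples and 8.69, 8.61 and 8.57 in mock samples. No set showed overlap. The change was 0.57 (SE 0.03, adjusted p = 3.72e-24 in limma), or 1.49-fold.

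PSME3, the related subunit that forms a nuclear cap by itself, went the other way. Its relative levels were -1.04, -0.69 and -0.43 in imatinib samples and -0.17, 0.01 and 0.23 in mock samples. In set C it stood at 8.21, 8.32 and 8.22 in imatinib samples and 9.17, 9.33 and 9.25 in mock samples. The groups did not overlap in any set, and the change was -0.71 (SE 0.03, adjusted p = 8.08e-24 in limma). Its 3 dimmer probe sets changed by -1.03, -0.98 and -0.76, further than the brightest.

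PSME4, a large nuclear activator, also fell, by 0.64 (SE 0.04, adjusted p = 7.06e-18 in limma), with imatinib samples between -1.08 and -0.22 and mock samples between -0.20 and 0.20. PSMF1, known as an inhibitor of the core in the test tube, was higher. It had relative levels of -0.33, 0.29 and 0.50 in imatinib samples and -0.18, -0.02 and 0.22 in mock samples, so 14 of 24 imatinib samples lay above all mock samples and 1 lay below them all. The change was 0.25 (SE 0.04, adjusted p = 2.11e-06 in limma) and was called in 5 of 8 sets.

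Genes with several probe sets gave a check of these values within the same arrays. There were 16 such genes with 23 dimmer probe sets, of which 19 had the sign of the brightest and 18 were called in its direction. The sizes differed either way. The dimmer probe set changed less in PSMD11 (-0.23 against -0.69) and PSMB2 (-0.10 against -0.35), and more in PSMA7 (-0.26 against -0.12) and PSMD1 (-0.46 against -0.36). That of PSMB2 was not called after quantile normalization (adjusted p = 0.895 in limma). The dimmer probe sets of PSMB2, PSMD11, PSMD12 and PSME4 overlapped between treatments, unlike the brightest. The opposite call came from 2 dim probe sets, of PSMD5 at -0.21 against 0.11 and of PSMB1 at 0.10 against -0.15. Averaging the probe sets of a gene turned PSMD5 to -0.05 (adjusted p = 0.0596 in limma), so its direction rests on the probe set used. PSMD9 and PSMF1 kept theirs, with dimmer probe sets at 0.22 and 0.44.

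Each set was then fitted alone, with 3 imatinib against 3 mock samples. Of the 62 proteasome probe sets 46 were called in D, 41 in C, 40 in B, 31 in G, 30 in A, 28 in E, 25 in H and 17 in F, where leaving out mock replicate 2 gave 11. The share of members was 48.4% in A, against 28.3% of all probe sets, 64.5% against 47.7% in B, 66.1% against 39% in C and 74.2% against 38.9% in D. It was 45.2% against 19.4% in E, 27.4% against 16.5% in F, 50% against 27.5% in G and 40.3% against 24.1% in H. Within every set more proteasome probe sets were called lower than higher, from 14 lower and 3 higher in F, where 9.47% of all probe sets were lower and 7% higher, to 40 lower and 6 higher in D, where 18% were lower and 20.9% higher. For the remaining sets the split of all probe sets by direction was not counted.

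**Figure D4:**
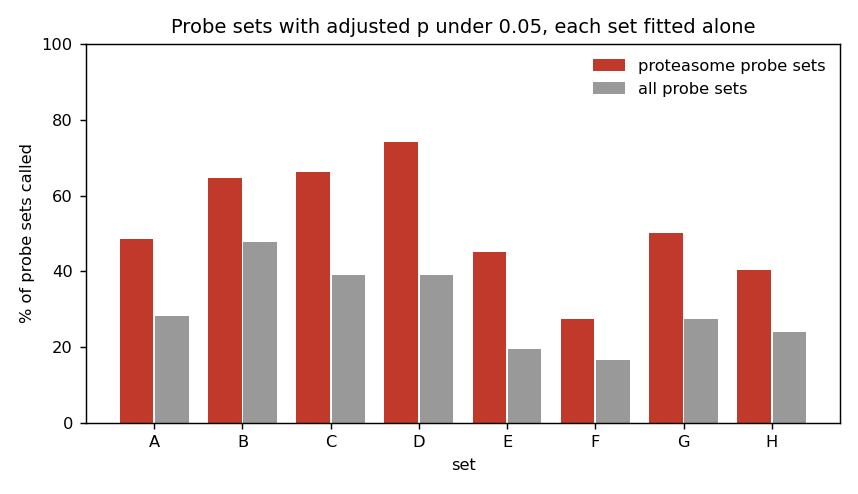
Percent of probe sets with an adjusted p under 0.05 between imatinib and mock samples (y axis) in each set A to H fitted alone (x axis), for the 62 proteasome probe sets in red and all 22215 probe sets in grey. The proteasome share is the higher one in each set, from 27.4% against 16.5% in F to 74.2% against 38.9% in D.

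PSMD12 had the lowest change of all 39 genes in each of the 8 sets. The highest was that of PSMD9 in A, E, F, G and H and that of PSME1 in B, C and D. The median change of the proteasome genes ran from -0.12 in set F to -0.34 in set E, beside medians over all genes of -0.01 and 0.06. A change below 0 in all 8 sets was measured for 24 genes, and one above 0 in all 8 for PSMB5, PSMD9, PSME1 and PSMF1. The share of all genes with the same sign in all 8 sets was not counted, so these counts are no result about the proteasome genes. A change that differed between sets was found in 2 of 62 probe sets, or 3.23%, against 7.2% of all probe sets. These were the brighter probe set of PSMD12 and that of PSMA4, whose change was -0.79 in set D and -0.09 in set F (adjusted p = 0.0256, limma F test of the set-by-treatment terms). The PSMA4 call was lost without set D (adjusted p = 0.0763 in limma) or set F (0.305).

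Other genes of the pathway were read from lists that hold no PSM symbol. Of 14 measured proteasome-associated factors 7 were lower and 2 higher, beside 27.1% lower and 41.6% higher over all genes. Centring gave 9 and 2, beside 30.5% of all genes each way, and quantile normalization 7 and 3, beside 26.1% lower and 36.4% higher. POMP, the chaperone that completes the core, averaged 10.18 in imatinib cells and 10.78 in mock cells, a change of -0.61 (SE 0.04, adjusted p = 1.49e-19 in limma). The ubiquitin-chain hydrolase UCHL5 and its receptor on the proteasome, ADRM1, changed by -0.53 and -0.46, and VCP, the ATPase that feeds substrates to the proteasome, by -0.38.

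Of 6 measured genes that control proteasome transcription, 3 were lower and 2 higher, beside 27.1% lower and 41.6% higher over all genes. Centring left 1 higher and quantile normalization gave 3. NFE2L2, a transcription factor that binds the antioxidant element, averaged 8.07 in imatinib cells and 9.38 in mock cells and changed by -1.31 (SE 0.06, adjusted p = 1.33e-25 in limma). STAT3, a cytokine-activated transcription factor, changed by -0.84 and NGLY1, an enzyme that activates NFE2L1, by -0.43, while KEAP1, which marks NFE2L2 for destruction, changed by 0.15. NFE2L1, the factor known for restoring proteasome genes when the proteasome is inhibited, was chosen for mention after its values were seen: it was not called at 0.01 (SE 0.03, adjusted p = 0.70 in limma) and was called higher at 0.11 (adjusted p = 0.000959) after quantile normalization.

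Among 9 measured partners of the immunoproteasome 4 were higher and 2 lower, beside 41.6% higher and 27.1% lower over all genes. These counts are near those shares and are no result about the list; either other scaling gave 4 and 3. TAPBP, which loads peptides onto the antigen-presenting molecules, averaged 10.01 in imatinib cells and 8.87 in mock cells, a change of 1.14 (SE 0.04, adjusted p = 1.69e-31 in limma). HLA-E, an antigen-presenting molecule, changed by -0.86, IRF1, an interferon-response transcription factor, by 0.39 and IFNGR1, a chain of the interferon gamma receptor, by -0.25. TAP1, a peptide transporter whose gene neighbours that of PSMB9, was also chosen after its values were seen and changed by 0.11 (SE 0.03, adjusted p = 0.000557 in limma).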

How the data were processed

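Levels of 48 K562 samples, 24 imatinib and 24 mock in 8 sets, were deposited by the authors as 1 log2 value for each of 22283 probe sets. The scale was read from the values, 2.41 to 14.9; how the authors corrected background and normalized is not given in the sources used here. The values were used as deposited, without a filter. The 68 control probe sets were left out. Names came from the array's platform annotation, brought up to date with RefSeq genes of GRCh38.p14: 19065 had 1 symbol, 1043 several and 2107 none, and 19053 of the 19065 matched the gene table. A gene was measured by its probe set of 1 symbol with the highest mean.

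Groups came from sample titles, whose treatment the descriptions spell out; the keywords of the imatinib samples name mock treatment, against their title and description, and were not used. No sample was a copy of another replicate: even the most similar pair differed by up to 0.671. Changes are imatinib minus mock from limma 3.58.1 in R 4.3.3 (lmFit, eBayes, two-sided) with the set as a factor, for each set alone, and with set-by-treatment terms. P-values were Benjamini-Hochberg adjusted over all 22215 probe sets, with a threshold of 0.05. The 3 pairs of exchanged subunits were compared by exact sign-flip permutation over 8 sets. The fits were tested on simulated data. Figures were drawn with matplotlib 3.10.9.

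Members, lists, motifs and tests were chosen with earlier results of these data known. Values were given in full for the inducible subunits and their counterparts, for the largest rise and fall of each list and for the 6 genes with the smallest adjusted p; of lists outside the family, up to 4 genes with the smallest adjusted p were named. Precision is limited by the number of arrays. Alternatives were centring, quantile normalization within sets, leaving out dim probe sets, an intensity trend, a replicate block, the mean over a gene's probe sets, and leaving out each sample or set.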

Additional observations from a re-analysis of the deposited data

Results flagged for a closer look

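For 2 proteasome probe sets the change differed between the sets A to H in a test of that difference, the limma F test of the set-by-treatment terms. PSMA4, an alpha ring subunit, had an adjusted p of 0.0256 there, with a change of -0.79 in set D and -0.09 in set F. PSMD12, the lid subunit, had an adjusted p of 0.0189 by its brighter probe set, with a change of -1.58 in set C and -0.87 in set F. Both genes were below 0 in all 8 sets. The PSMA4 call was lost with the replicate block (adjusted p = 0.0534 in limma) and without set D (0.0763) or F (0.305), and the PSMD12 call without set C (0.159) or F (0.0811). What sets the sets apart is not stated in the labels, and the cause was not tested. Groups of 3 samples were too small to be searched for single outlying samples.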

How the results depend on the processing

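Quantile normalization within sets turned the sign of PSMC2 to 0.10 (adjusted p = 0.00309 in limma), PSMB4 to 0.0808 (0.0365), PSMC1 to 0.12 (6.38e-05), PSMD4 to 0.0246 (0.40) and PSMD10 to 0.0820 (0.0473). The mean over probe sets turned PSMD5 to -0.0492 (0.0596). Quantile normalization also ended the calls of PSMA7, PSMD6 and PSMB8, and centring those of PSMB8 and PSMD5, while centring added one for PSMG2. With dim probe sets left out, 9019 probe sets were called over the whole array, where fewer were tested, against 14478. The count of proteasome probe sets whose change differed between sets was 2, but 4 after quantile normalization, which added PSMG1 and PSMB9, and 1 with the replicate block, which ended the PSMA4 call (0.0534), and 0 to 3 without 1 set. With each sample left out in turn, the genes called higher stayed at 6 and those called lower at 27; the probe sets called higher ran from 9 to 10 and those called lower from 44 to 45. The probe sets called in a set alone ran from 26 to 29 in A, 36 to 42 in B, 32 to 42 in C, 34 to 47 in D, 19 to 39 in E, 11 to 16 in F, 21 to 32 in G and 20 to 25 in H. Set F reached 11 without mock replicate 2. The pair differences ran from -0.08 to 0.06 for PSMB8, 0.37 to 0.44 for PSMB9 and 0.01 to 0.05 for PSMB10 without 1 replicate number. No proteasome gene changed its call without any 1 of the 48 samples; without 1 set, PSMB8 lost its call without set C and PSMC6 reached 0.0476 at most. Same-numbered imatinib and mock samples deviated together with a median correlation of 0.0161 over 24 pairs, 7 of them over 0.1, and 10 of 24 imatinib samples were closest to the mock sample of their own number. Deviations from a mean of 3 samples are bound to sum to 0, so this check cannot decide whether the numbers pair samples. The main fits did not use the numbers as pairs. The replicate block, which did, gave 9 probe sets higher and 45 lower.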

Other observations

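The probe sets left out because their symbols go on with letters measured other proteins. PSMC3IP, a recombination factor that binds the ATPase PSMC3, averaged 7.87 in imatinib cells and 8.07 in mock cells by its brighter probe set, a change of -0.20 (SE 0.04, adjusted p = 5.10e-06 in limma). PSME3IP1, a partner of PSME3, averaged 7.98 in imatinib cells and 7.84 in mock cells, a change of 0.15 (SE 0.03, adjusted p = 3.16e-05 in limma).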
